A study of Mus musculus with 6 samples.

Results

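Transcripts of 9 genes that restrain bone morphogenetic protein (BMP) and activin signalling were followed in spheroids of B16F10, an established mouse melanoma line, grown in Matrigel, a basement membrane gel. The genes were listed by name (Nog, Bambi, Twsg1, Fst, Fstl1, Fstl3, Chrd, Bmper and Grem1), and all 9 were found by Ensembl identifier among the 34981 genes of the deposited table. RNA was sequenced from 6 cultures, each started from 500 cells. In 3 of them the gel received the ligand BMP2 at 100 ng/ml, and 3 controls were given PBS, the carrier solution, all for 10 days. The control samples carry the word untreated in their titles. Each of 3 batches, marked by the replicate numbers 1, 2 and 3, contributed 1 culture of either kind. BMP2 1 and PBS 1, for example, share a batch. All cultures are of a single cell line, so the comparison describes this line in a gel and not a tumour.

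BMPs and activins are secreted dimers that bring type I and type II receptors together and switch on SMAD transcription factors. Antagonists act outside the cell by masking the ligand, as noggin, chordin, gremlin and follistatin do, or at the membrane, as the kinase-less pseudoreceptor BAMBI does. Noggin is also a transcriptional target of BMP signalling in many tissues, which closes a negative feedback loop. In the skin, noggin is known for its part in hair follicle growth and pigmentation.

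Libraries held between 27821911 and 36856498 estimated counts. On the leading axis of a principal component analysis (55.5% of variance), PBS 1, 2 and 3 scored 60.3, 2.79 and -17.9. BMP2 1, 2 and 3 scored 14.7, -17 and -42.8. The scores thus fell from batch 1 to batch 3 in both groups, and BMP2 lay below PBS in each batch. PBS 1 had the most extreme score. The labelled cell type matched its markers: all 10 melanocyte genes passed the count filter, with summed levels of 29257 to 39880 CPM (counts scaled to a common library size) with BMP2 and 23850 to 27006 with PBS. Fibroblast markers summed to 7.02 to 19.8 against 7.72 to 18.5 CPM, endothelial markers to 16.1 to 30.5 against 25.3 to 29.5, leukocyte markers to 3.00 to 6.03 against 4.44 to 5.89, epithelial markers (3 of 6 analysed) to 0.445 to 0.759 against 0.163 to 0.759, and cartilage and bone markers to 10.1 to 14.2 against 11.8 to 19.7. The endothelial genes Cdh5, Tek and Cldn5, the leukocyte gene Adgre1 and the skeletal genes Acan and Ibsp had 0 counts in all 6 libraries. The melanocyte sum was higher in every BMP2 library than in every PBS library, as 6.42% of single tested genes were. Its part in the results was not tested. Dct had the highest mean of the 10 genes, at 9759 CPM over all libraries. Of the 10, 0 passed an adjusted p of 0.05 by edgeR without a term for batch, and 1 with it. With that term 0.371% of all tested genes rose and 0.364% fell. In bulk RNA, fewer cells expressing a gene and less RNA per cell cannot be told apart.

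Promoter sequence from RefSeq (GRCm38.p6, 250 bases before to 50 after the annotated start) was matched for 6 of the 9 genes, Twsg1, Fstl1, Fstl3, Chrd, Bmper and Grem1, and not for Nog, Bambi and Fst. These were searched on both strands for GGCGCC, a GC-rich sequence known to be bound by BMP-activated SMADs, and for the palindrome GTCTAGAC, which joins a pair of the GTCT and AGAC elements of SMAD binding. The motifs do not overlap each other. GGCGCC occurred once each in Chrd and Grem1 and in none of the other 4, and is held by 11.9% of the 32851 promoters in the table. GTCTAGAC occurred in none of the 6 and is held by 0.213% of all promoters. Both stretches with GGCGCC are shown because they belong to genes that were near 0 counts with and without the ligand, as given further on. Capitals mark the motif, whose first base lies 203 bases before the start in Chrd (chr16:20732894-20732959, plus strand) and 78 bases before it in Grem1 (chr2:113758691-113758756, minus strand).
Chrd: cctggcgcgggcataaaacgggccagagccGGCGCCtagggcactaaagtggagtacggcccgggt
Grem1: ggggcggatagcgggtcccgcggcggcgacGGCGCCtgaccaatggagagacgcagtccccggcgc
A match of letters is a description and not a binding site.

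Nog, which encodes noggin, a secreted protein that binds BMP2, BMP4 and related ligands and hides their receptor-binding faces, was close to absent without the ligand and present with it. Estimated counts were 18.6, 878 and 348 in BMP2 1, 2 and 3, against 1.98, 2.01 and 1.02 in PBS 1, 2 and 3. On the CPM scale the BMP2 libraries were at 0.650, 25.6 and 8.69 and the PBS libraries at 0.0651, 0.0562 and 0.0299. Every BMP2 library thus lay above every PBS library, but BMP2 1 was far below the other BMP2 libraries. Among the 12929 genes tested, 6.42% had all BMP2 libraries above all PBS libraries. The gene (ENSMUSG00000048616, GRCm38 chromosome 11, 89300638 to 89302332, minus strand) is annotated as a single exon of 1695 bases, no exon of another gene overlaps it, and 0 of its 1665 stretches of 31 bases occur in other annotated transcripts, so its counts did not have to be divided with another gene.

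The size of the Nog difference was limited by the few control counts. Over the groups, 1245 rounded counts with BMP2 stood against 5 with PBS, a ratio of 240 after scaling (exact 95% counting interval 103 to 740). Within batches the ratios were 10.0 in batch 1 (2.41 to 88.5), 456 in batch 2 (126 to 3772) and 290 in batch 3 (51.7 to 11495). These intervals cover counting error alone, and those of batches 1 and 2 do not meet. In BMP2 cultures the mean was 11.7 ± 12.8 CPM (SD, n = 3), so the spread between BMP2 cultures was larger than their mean.

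**Figure D1:**
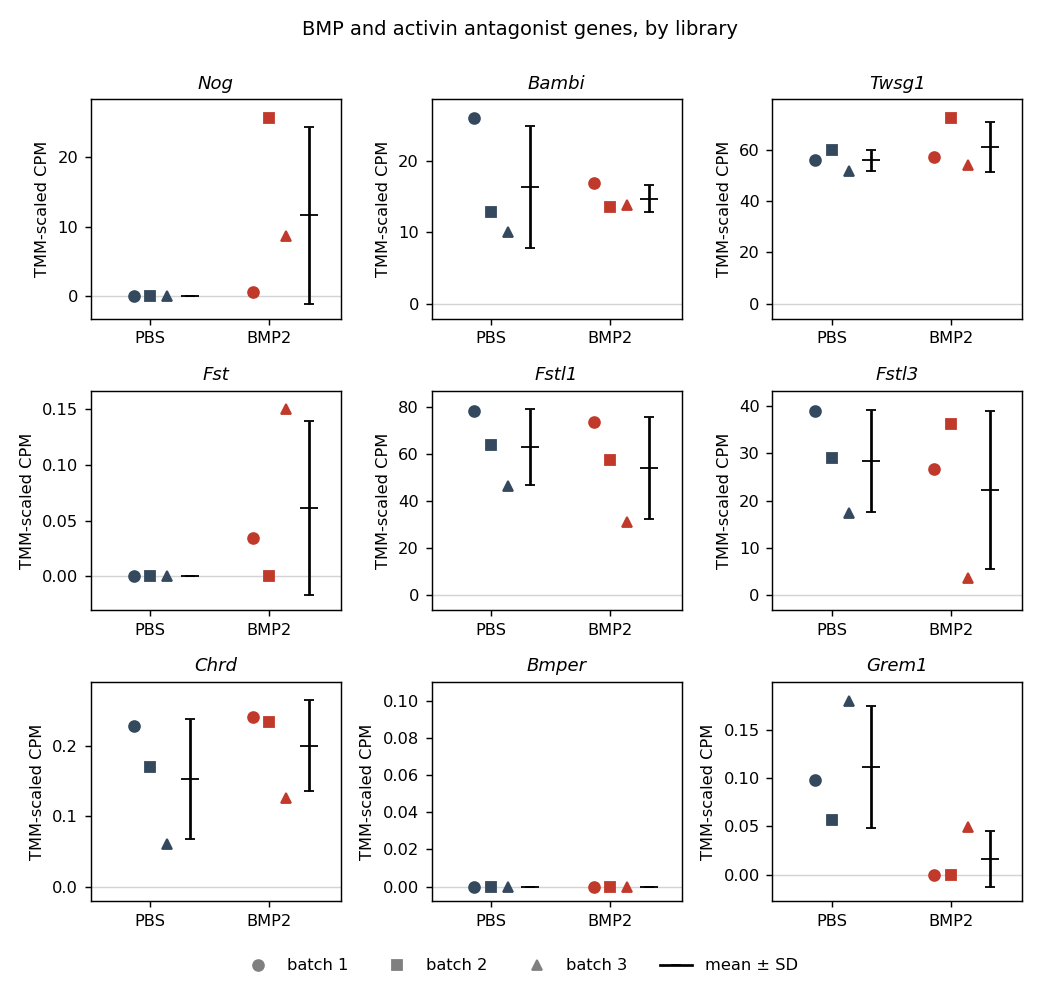
Levels of the 9 antagonist genes in TMM-scaled CPM (vertical axes, linear, each with its own range) for PBS (dark) and BMP2 (red), with 1 point per library, marker shapes for batches and a bar for the mean ± SD over 3 libraries. Nog is near 0 in all PBS libraries and spans 0.650 to 25.6 CPM with BMP2, while Twsg1 stays between 51.5 and 72.3 CPM in all 6 libraries and Bmper is at 0.

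Without a term for batch, edgeR's quasi-likelihood test gave Nog a log2 fold change of 7.76 (SE 1.41) at an adjusted p of 0.21, which did not pass the threshold of 0.05. With batch as a block, Nog rose by 7.61 on the log2 scale (SE 0.75, edgeR adjusted p 0.0241). With so few control counts, these SEs do not give the uncertainty of the fold itself. Its log2 fold change without the block was the second largest among tested genes, where 0.0155% of genes reached 7 or more. Nog passed the count filter only through its BMP2 libraries, so it had to differ to be tested at all. The fold did not rest on 1 batch, but its call did: with the block and without batch 2 the log2 fold change was 6.08 at an adjusted p of 0.134, and without BMP2 1 and without the block it was 8.32 at 0.0197. Over 17 alternative settings the log2 fold change of Nog lay between 5.51 and 8.52 and its adjusted p between 1.63e-09 and 0.787.

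Of the 9 genes, 5 passed the count filter (Nog, Bambi, Twsg1, Fstl1 and Fstl3) and 4 did not (Fst, Chrd, Bmper and Grem1). Without the block, 0 of the 5 passed edgeR's test, against 0.00773% of all tested genes that rose and 0.0387% that fell, and Nog alone had an unadjusted p under 0.05. With the block 1 of the 5 rose, against 0.371% of all tested genes, and 0 fell, against 0.364%. The Wald test of DESeq2 called Nog with and without the block (adjusted p 3.07e-05 and 1.63e-09), where 1.86% and 0.48% of all tested genes rose. By limma-trend after quantile normalization 0 of the 5 passed, where 0.0155% of all tested genes rose. The median log2 fold change of the 5 was -0.15 without the block, beside 0.01 over all genes tested. By batch, of these 5 Nog and Twsg1 were higher with BMP2 in all 3 (22.7% of all tested genes were) and Fstl1 was lower in all 3 (21.1% were).

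Twsg1 encodes twisted gastrulation, a secreted protein that binds BMPs together with chordin and can hold the ligand back or help release it. Its level was the steadiest of the 5 tested genes, at 57.2, 72.3 and 53.9 CPM in BMP2 1, 2 and 3 and at 56.1, 59.8 and 51.5 in PBS 1, 2 and 3. The groups overlapped, at 61.1 ± 9.8 against 55.8 ± 4.2 CPM (SD, n = 3). Its log2 fold change was 0.13 with a 95% interval of -0.30 to 0.56 (edgeR adjusted p 0.905), and within batches it was 0.03, 0.27 and 0.06.

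Bambi encodes the transmembrane pseudoreceptor, which resembles a type I receptor but lacks the kinase domain, and it is itself known as a BMP target in several cell types. Levels were 16.9, 13.5 and 13.8 CPM with BMP2 and 26.0, 12.9 and 10.1 with PBS. PBS 1, the library with the most extreme score on the leading axis, was the highest and PBS 3 the lowest, with the BMP2 libraries between them. The log2 fold change was -0.15 (95% interval -0.97 to 0.67, edgeR adjusted p 0.949), and within batches it was -0.62, 0.06 and 0.45. Without PBS 1 the log2 fold change was 0.35 (adjusted p 0.949), so its sign rested on that library.

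Fstl1 and Fstl3 encode secreted proteins with follistatin-type domains. FSTL3 binds activins and myostatin tightly, as follistatin does, while FSTL1 is a more distant relative with several reported partners. Fstl1 was at 73.9, 57.6 and 31 CPM with BMP2 and at 78.6, 64.0 and 46.6 with PBS, lowest in batch 3 in both groups. The groups overlapped, and the log2 fold change was -0.22 (95% interval -0.99 to 0.55, edgeR adjusted p 0.913), or -0.27 with the block (-0.62 to 0.08, adjusted p 0.383). In its annotated transcripts 8.45% of the 31-base stretches occur in other genes.

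Relative to its mean, Fstl3 had a wider spread with BMP2 than Fstl1, Twsg1 or Bambi. It was at 26.8, 36.3 and 3.67 CPM with BMP2 and at 38.9, 29.0 and 17.4 with PBS. BMP2 3 was low and the other BMP2 libraries lay within the PBS range. Within batches the log2 differences were -0.54, 0.32 and -2.25, and the log2 fold change was -0.36 (95% interval -1.93 to 1.22, edgeR adjusted p 0.936) or -0.77 with the block (-1.83 to 0.30, adjusted p 0.415). Without BMP2 3 and without the block it was 0.15, so there the sign turned. With the block it was -0.11 without batch 3 and -1.36 without batch 2. The overlapping gene Prss57, read from the opposite strand, shares 46.7% of the 31-base stretches of Fstl3. Prss57 itself had 0 to 12.5 estimated counts per library, against 147 to 1244 for Fstl3, and reads of both genes in the shared part cannot be told apart without strand.

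The remaining 4 genes were at or near 0. Fst encodes follistatin, which neutralises activins, and had 0.567, 0 and 6.13 estimated counts with BMP2 and 0 in all 3 PBS libraries. Over the groups that is 7 rounded counts against 0, a ratio of 2.25 when the PBS group is set to a floor of 3 counts. That ratio is not a lower limit, since the exact 95% counting interval starts at 1.39 and has no upper end. BMP2 3 alone held most of these counts. Grem1 encodes gremlin, a cystine-knot antagonist of BMP2, BMP4 and BMP7. It had 0, 0 and 2.41 estimated counts with BMP2 and 2.53, 2.50 and 6.24 with PBS. Its libraries did not overlap between groups, as for 5.72% of tested genes with BMP2 below PBS, a share taken over genes with more counts than Grem1. The difference rests on 2 rounded counts against 11, a ratio of 0.175 (exact 95% counting interval 0.0189 to 0.803). Every library but PBS 3 was at or under 3 rounded counts. BMP2 3 and PBS 2 held the same rounded count. Their levels of 0.0499 and 0.0562 CPM differ only through the scaling to library size, so the lack of overlap rests on that scaling. In the annotated transcript of Grem1, 1.17% of the 31-base stretches occur in other genes, 1084 in number.

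Chrd encodes chordin, which sequesters BMPs until tolloid proteases cut it, and had 6.77, 7.54 and 4.78 estimated counts with BMP2 and 6.77, 5.88 and 1.57 with PBS, a ratio of 1.28 (0.625 to 2.70). Bmper encodes crossveinless-2, a chordin-like regulator of BMP activity, and had 0 counts in all 6 libraries. For Bmper the depth allows up to 0.0290 CPM over the BMP2 group and 0.0301 over the PBS group. When no filter on low counts was applied, 0.088% of genes rose by edgeR, Nog among them at an adjusted p of 0.0148, and the edgeR adjusted p values were 0.818 for both Fst and Grem1 and 0.94 for Chrd.

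Levels of different genes can be compared only per length, here as CPM per kilobase of annotated exon. In PBS cultures the order was Fstl1 at 12.8 ± 3.2, Fstl3 at 11.6 ± 4.4, Twsg1 at 10.8 ± 0.8 and Bambi at 3.22 ± 1.67 (SD, n = 3), followed by Nog at 0.0297 ± 0.0108, Grem1 at 0.0268 ± 0.0151 and Chrd at 0.0243 ± 0.0136. The libraries of Fstl1, Fstl3 and Twsg1 overlapped along this order, as did those of Nog, Grem1 and Chrd. Bambi lay apart from its neighbours on both sides.

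In BMP2 cultures Twsg1 was at 11.9 ± 1.9 CPM per kilobase, Fstl1 at 11 ± 4.4, Fstl3 at 9.10 ± 6.87, Nog at 6.88 ± 7.52 and Bambi at 2.90 ± 0.38, and each overlapped the next. In BMP2 2 Nog was the most abundant of the 9 per length, at 15.1, with Fstl3 at 14.9, Twsg1 at 14 and Fstl1 at 11.7 in the same library. In BMP2 3 it was at 5.13, behind Twsg1 at 10.5 and Fstl1 at 6.32, and in BMP2 1 at 0.384, behind Bambi at 3.34. As a share of the summed level of the 9 genes per length, Nog made up 0.939%, 25.9% and 19.6% in BMP2 1, 2 and 3 and 0.0799%, 0.0848% and 0.0616% in PBS 1, 2 and 3.

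**Figure D2:**
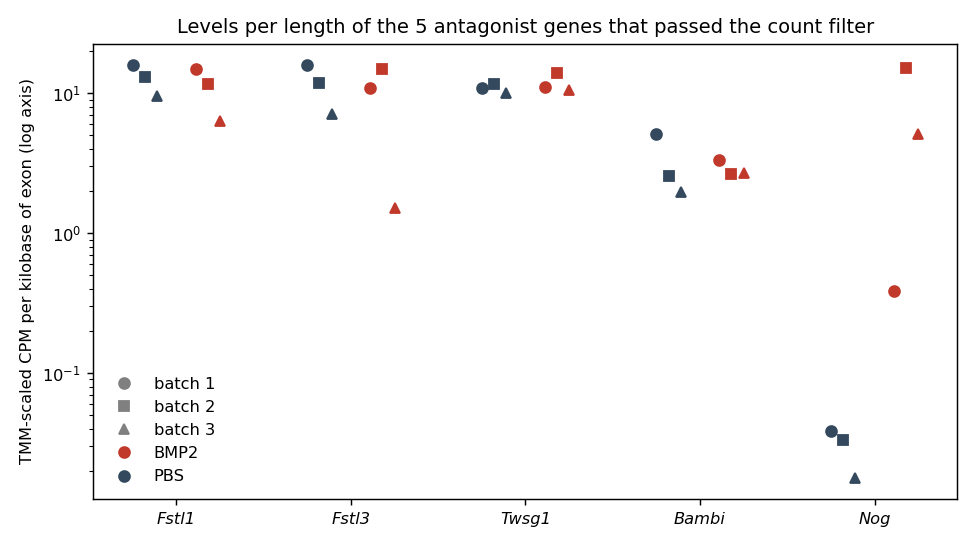
TMM-scaled CPM per kilobase of annotated exon (vertical log axis) for the 5 antagonist genes that passed the count filter, with 1 point per library, PBS in dark and BMP2 in red, and marker shapes for batches. Nog lies near 0.03 in PBS cultures and reaches 15.1 in BMP2 2, level with Fstl3 at 14.9 in that library.

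Unlike Nog, most of the tested SMAD genes and known BMP targets were higher in BMP2 3 than in BMP2 2. Of 11 tested SMAD genes and known BMP targets, 8 were highest in BMP2 3 among the BMP2 libraries and 3 in BMP2 2, and 8 were lowest in BMP2 1, as Nog was. Id1, Id2 and Id3 encode inhibitors of basic helix-loop-helix factors, Smad6 an inhibitory SMAD, Smad9 a receptor-activated SMAD and Atoh8 a transcription factor. These 6, which are those of the 11 with every BMP2 library above every PBS library, were highest in BMP2 3 and lowest in BMP2 1, whereas Nog was highest in BMP2 2. The CPM in BMP2 2 divided by that in BMP2 3 was 2.95 for Nog and 0.513 (Smad6) to 0.853 (Id1) for the other 6. Of the remaining 5, Smad7, which encodes another inhibitory SMAD, had a ratio of 2.52, Smad1 1.34 and Smad4 1.01, and Smad5 and Runx2 had 0.749 and 0.726. Over all tested genes 50.0% were higher in BMP2 2 than in BMP2 3. With 1 culture per batch and treatment this difference in order could not be tested. The smallest within-batch log2 difference of Nog (3.32), Id1 (1.37), Id3 (2.27), Smad6 (1.78) and Smad9 (2.87) fell in batch 1, while Id2 had 2.51, 2.46 and 3.45 in batches 1, 2 and 3.

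**Figure D3:**
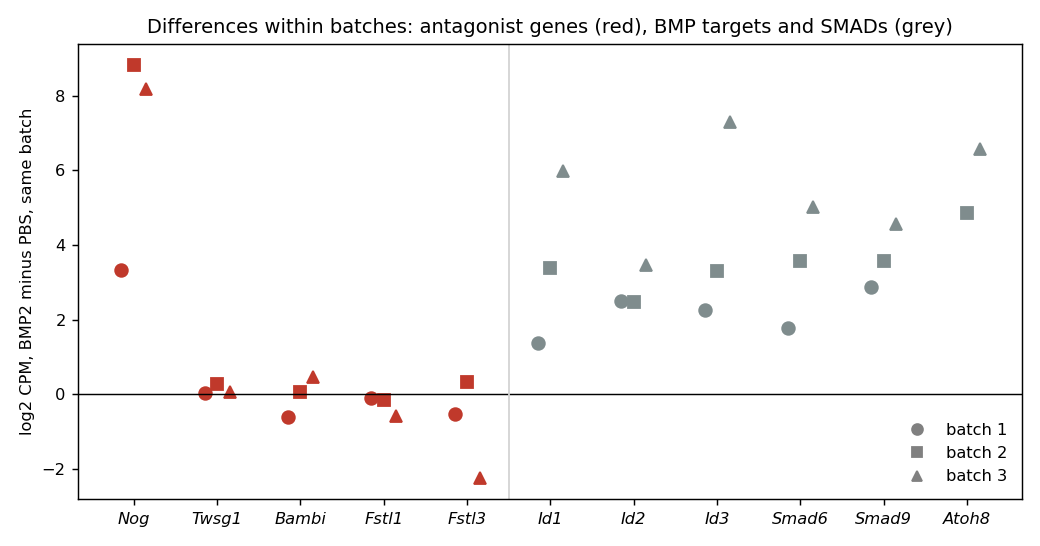
Log2 CPM difference, BMP2 minus PBS, within each batch (vertical axis), for 5 antagonist genes (red) and 6 known BMP targets and SMAD genes (grey), with marker shapes for batches. Nog reaches 8.83 in batch 2 and 8.18 in batch 3 against 3.32 in batch 1, the other antagonists lie between -2.25 and 0.45, and Atoh8 has no point in batch 1 because PBS 1 had 0 counts.

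The 5 protein-coding genes whose levels followed Nog most closely over the 6 libraries, by Pearson's r of log2(CPM + 1) among 11689 genes, were Chfr (r = 0.999), Moxd1 (0.998), Dnajc6 (0.996), Aebp1 (0.991) and Lims2 (0.986). These are the highest of many values over 6 libraries of 2 treatments and are given without a test. The sizes of the differences were unlike that of Nog. Lims2, which encodes a focal adhesion adaptor, was at 0.959, 11.9 and 4.22 CPM with BMP2 and at 0.240 to 0.846 with PBS. Aebp1, which encodes a secreted collagen-binding protein, was at 410, 905 and 771 against 365 to 395, and Chfr, which encodes a mitotic checkpoint ubiquitin ligase, at 33.2, 42.3 and 39.0 against 31.7 to 32.2. None of the 5 passed edgeR's test in either fit (without the block adjusted p was 0.513 to 0.883, and with it 0.171 to 0.411).

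The ligands that these antagonists bind were mostly at low levels in the melanoma cells. Of 26 ligand genes of the BMP, GDF and activin families, 9 had 0 counts in all libraries, Bmp2 and Inhbb among them, and 2 were tested, of which 0 passed in either fit. Gdf11, a ligand that follistatin and FSTL3 bind, was the main one, at 65 ± 18 CPM with BMP2 and 61.7 ± 27.9 with PBS (log2 fold change 0.08, edgeR adjusted p 0.975). Gdf9, an ovarian ligand, was at 0.954 ± 0.419 against 0.896 ± 0.835 CPM. Inhba, the activin A subunit gene, had 13.9, 14 and 10.1 estimated counts with BMP2 and 8.89, 6.03 and 8.13 with PBS, and Bmp4 had 0 to 1.97.

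Of 13 receptor and co-receptor genes analysed, 12 were tested and 0 passed in either fit, with a median log2 fold change of 0.01. Acvr1b and Hjv are not analysed here. The 3 with the smallest unadjusted p were Tgfbr3, the betaglycan co-receptor (7.5 ± 1.7 against 12.4 ± 3.4 CPM, log2 fold change -0.72), Acvr2b, a type II activin receptor (2.10 ± 1.06 against 5.39 ± 5.15, -1.36), and Rgma, a BMP co-receptor (8.25 ± 2.47 against 12.8 ± 5.1, -0.63). All 3 had an edgeR adjusted p of 0.883 in the fit that ignores batch, and of 0.215 to 0.284 in the blocked fit. The PBS mean of Acvr2b rested on PBS 1, at 11.3 CPM against 3.12 and 1.77 in the other PBS libraries.

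A further 19 genes of extracellular antagonists outside the list were looked up, of which 4 had 0 counts and 6 were tested, and 0 passed in either fit. Fstl4, a follistatin-like gene, was at 7.19, 7.15 and 8.31 CPM with BMP2 and at 6.83, 15.8 and 17.3 with PBS (log2 fold change -0.82, edgeR adjusted p 0.883). Dand5, of the gremlin-related DAN family, was at 6.51 ± 0.65 against 5.60 ± 1.00 CPM and Cer1, which encodes cerberus, at 0.671 ± 0.442 against 0.399 ± 0.264, each with overlapping groups.

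Among the 11 tested SMAD genes and known BMP targets, 0 passed edgeR's test without the block. With the block 3 rose (Id2, Smad9 and Atoh8), against 0.371% of all tested genes, and 0 fell, against 0.364%. Every BMP2 library exceeded every PBS library for 6 of the 11, against 6.42% of all tested genes, and lay below for 1, against 5.72%. By batch 6 were higher in all 3 and 2 were lower in all 3, against 22.7% and 21.1%. Atoh8 is counted among the 3 and among the 6. It was at no more than 0.225 CPM in PBS libraries and passed the count filter only through its BMP2 libraries. Like Nog, it thus had to differ to be tested at all. These lists were drawn up with earlier results of the data known.

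**Figure D4:**
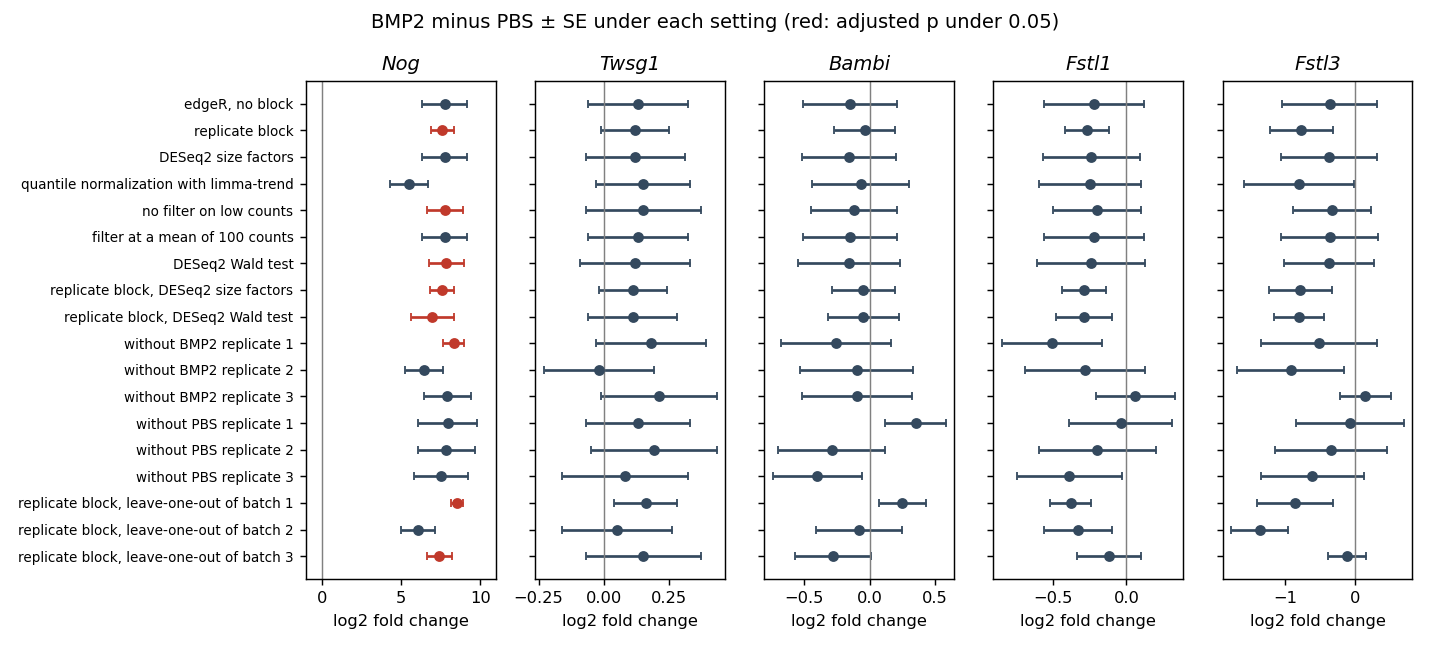
Log2 fold change, BMP2 minus PBS, with its SE (horizontal axes, each gene with its own range), for the 5 tested antagonist genes under each of 18 settings (rows), in red where the adjusted p was under 0.05. Nog lies between 5.51 and 8.52 under all settings and is red in 8 of them, and the other 4 genes are red in none.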

How the data were processed

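Total RNA was extracted and libraries prepared with Illumina's TruSeq chemistry, as the labels' protocols say. The authors assigned reads with kallisto, per the submitters' processing notes, and deposited the resulting estimated counts per Ensembl gene, with 1 column per library and no scaling between libraries. The submitters' processing notes name kallisto 0.44.0 and the mouse build GRCm38.p6. The annotation release, the step from transcripts to genes and the strand setting were not given in the sources used here. Counts were rounded, symbols and exons were taken from GENCODE M21 (GRCm38, 34679 of 34981 identifiers matched), and genes were tested with edgeR 4.0.16 in R 4.3.3: default count filter, TMM scaling, the quasi-likelihood test and Benjamini-Hochberg adjustment over 12929 genes at 0.05. CPM values are TMM-scaled.

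Columns named Ctrl were matched to the samples titled untreated. Groups hold 3 libraries each, with 27821911 to 36856498 estimated counts, so that 3 counts correspond to 0.0749 to 0.103 CPM. Exact counting intervals (95%, conditional binomial) and floors cover counting error alone. The labels state that replicate numbers mark batches, and deviations from group means correlated at 0.58, 0.37 and 0.64 within batches, against -0.59 to 0.02 between them. The fit with batch as a block leaves 2 residual degrees of freedom, against 4 without it.

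Alternatives were the block, size factors of the DESeq2 type, the Wald test of DESeq2 1.42.0 and quantile normalization with limma 3.58.1. Others were 2 other count filters and leaving out each library or batch. Settings named DESeq2 size factors used that type of scaling as computed by edgeR (its RLE method), followed by edgeR's test. The fits were tested on simulated counts that were given a batch effect in every gene, with the spread estimated from a fit with batch. There the fit without the block missed more changed genes than the blocked fit. That setting favours the blocked fit, so it cannot decide which fit is right for these data. Unchanged genes made up a somewhat larger share of the blocked fit's calls than the threshold allows. The 9 genes and all lists were chosen with earlier results of these data known. Genes named outside the 9 were, for each list, those that passed in either fit and the 3 with the smallest unadjusted p, plus genes most like Nog. Id1, Id3, Smad1, Smad4, Smad5, Smad7, Runx2, Bmp2, Bmp4, Inhba and Inhbb were added by choice after their values were seen.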

Additional observations from a re-analysis of the deposited data

How the results depend on the processing

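In all 17 alternatives Nog was higher with BMP2, at log2 fold changes of 5.51 to 8.52, and passed in 8 of them. Among the 9 antagonist genes 0 passed in the first fit, by edgeR without the block and with the default count filter. With the block, 1 (Nog) passed by edgeR, with DESeq2 size factors, by the Wald test, and without batch 1 or batch 3. Without the block, Nog passed by the Wald test and with no filter on low counts. The number that passed ranged from 0 to 1 when 1 library was left out, with Nog passing without BMP2 1. Over all genes 6 passed in the first fit. The block gave 95 by edgeR, 98 with DESeq2 size factors and 653 by the Wald test. Fits without it gave 130 by the Wald test, 35 with no filter, and 2 to 10 when 1 library was left out. With the block, 531, 27 and 218 genes passed without batch 1, batch 2 and batch 3, in fits that leave 1 residual degree of freedom. Of the other pathway lists 0 genes passed in the first fit. The block gave 3 by edgeR, 3 with DESeq2 size factors and 10 by the Wald test, and 9, 3 and 6 without batch 1, 2 and 3. Fits without it gave 7 by the Wald test, 5 with no filter, and 0 to 2 with 1 library left out. The cause of these differences was not tested. Directions turned for 4 genes, of which none passed under any setting: Twsg1 at -0.02 without BMP2 2, Fstl1 at 0.06 and Fstl3 at 0.15 without BMP2 3, and Bambi at 0.35 without PBS 1 and at 0.25 with the block without batch 1. Scaling turned no direction, and the median log2 fold change of all genes was 0.010 with TMM, -0.004 with DESeq2 size factors and 0.011 after quantile normalization. When 1 library was left out, log2 fold changes ran from -0.40 to 0.35 for Bambi, -0.02 to 0.21 for Twsg1, -0.51 to 0.06 for Fstl1, -0.92 to 0.15 for Fstl3 and 6.43 to 8.32 for Nog. Depth limits Fst, Grem1, Chrd and Bmper, with at most 20 rounded counts per group, and the control level of Nog, with 5.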

Other observations

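Heparan sulfate proteoglycans hold noggin and gremlin at the cell surface and in the matrix, and tolloid proteases cut chordin. A list of 19 genes, mostly of proteoglycans, sulfatases and proteases, was looked up. It also held Furin, Pcsk5, Pcsk6 and Pcolce, so not all of its genes act on the antagonists themselves. Of the 19, 12 were tested and 0 passed edgeR's test in either fit. Their median log2 fold change was -0.21, beside 0.01 over all genes tested. By batch 5 of the 12 were lower with BMP2 in all 3, where 21.1% of all tested genes were, and 2 were higher in all 3, where 22.7% were.

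Hspg2, which encodes perlecan, a proteoglycan of basement membranes, was at 39.6, 48.6 and 26.2 CPM in BMP2 1, 2 and 3 and at 90.3, 65.6 and 67.9 in PBS 1, 2 and 3. Sdc3, which encodes the transmembrane proteoglycan syndecan-3, was at 32.8, 31.6 and 17.8 CPM with BMP2 and at 49.1, 71.5 and 42.8 with PBS. For both genes every BMP2 library lay below every PBS library, as for 5.72% of all tested genes. Their log2 fold changes were -0.97 (SE 0.26) and -0.99 (SE 0.30), with edgeR adjusted p values of 0.568 and 0.689 without the block and of 0.0967 and 0.07 with it. Sdc1, which encodes syndecan-1, was at 36.0 ± 0.4 against 44.6 ± 9.4 CPM (SD, n = 3), with overlapping groups.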
